A study of Mus musculus with 83 samples.

Results

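TBP depletion for 16 h in C64 cells was examined through the Pol II CUT&Tag read count of every gene. The members were chosen by the 16 h table: the 27752 genes it lists were taken in its 2 control and 2 IAA libraries, and 16349 of them held enough reads to be tested. C64 is a mouse embryonic stem cell (mESC) line, made by genome editing of JM8.N4 cells. Both copies of Tbp carry the minimal auxin-inducible degron (mAID) at the N-terminus. By the study's account the largest Pol II subunit of C64 also carries a HaloTag at its C-terminus, and a histone variant carries GFP. Control cells received the solvent DMSO and treated cells 500 µM indole-3-acetic acid (IAA) for 16 h, so both groups carry the degron and differ by IAA. C64 is 1 line, and the comparison has no IAA-treated line without the degron. The 4 libraries are among the 8 Pol II libraries of sequencing run 3 and the 83 samples of the series. Libraries made in the same run from cells given retinoic acid, without or with IAA for 16 h, a run of C64 cells given IAA for 6 h, and B8 cells (C64 cells without Tbpl1) given IAA for 6 h served for comparison.

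The TATA-box binding protein (TBP) is the subunit of TFIID that bends promoter DNA, and it also sits in the initiation factors of Pol I and Pol III. The degron tag is recognized by a plant F-box protein when auxin is present, and the tagged protein is then degraded by the proteasome. In CUT&Tag an antibody brings a transposase to its target, so the reads over a gene count the polymerases on it, whether paused or elongating, and not its RNA. The question of the comparison is which genes hold less or more Pol II after a long depletion of TBP, a time that leaves room for indirect changes.

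Pol II fell over 233 of the 16349 genes (1.43%) and rose over 120 (0.734%), 2.16% in all, when the replicate number was a block and the threshold was an adjusted p of 0.05 in edgeR's quasi-likelihood test. The genes that fell included constitutive chaperones, chaperones of the endoplasmic reticulum (ER), glucose transport and glycolysis genes and genes that host small nucleolar RNAs (snoRNAs). The genes that rose included 11 of 40 targets of p53. Without the block no gene passed in either direction by the same test. An unadjusted p under 0.05 was reached by 319 genes without the block (1.95% of those tested) and by 1984 with it (12.1%). The likelihood-ratio test of edgeR without the block found 2 falls and no rise. Every call of the blocked fit pointed the same way in both same-numbered pairs of libraries, a direction that the choice of calls largely fixes. Control and IAA levels did not overlap for 186 of the 233 falls and 93 of the 120 rises, against 27.3% of all genes tested.

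The libraries held 5026110 and 4330581 reads in genes (control replicates 1 and 2) and 4848456 and 4077791 (IAA replicates 1 and 2). The numbers are tied to a difference in the libraries: E. coli spike-in DNA took 0.494 to 0.567% of the reads of the 4 Pol II libraries numbered 1 in run 3 and 7.55 to 11.6% of those numbered 2. Olfactory receptor genes, which serve smell in sensory neurons, took 0.0758 and 0.114% of control reads and 0.0970 and 0.111% of IAA reads, so that this background rose in pair 1 and not in pair 2. Its part in the results was not tested. Of 12 mESC markers 11 carried reads, Esrrb and Tfcp2l1 at 2.97 to 11.7 CPM per kb, and the median marker stood at 2.55 to 2.87 CPM per kb, against 0.423 to 0.548 for all genes in the table. Sox2 had 0 reads in all 4 libraries; it lies inside the counted gene Sox2ot, and Sox1 inside Sox1ot had 0 as well. Whole-gene Pol II did not set the cell type apart, since markers of mesoderm (1.26 to 1.86) and neuroectoderm (1.74 to 3.17) stood near it, while fibroblast markers (0.376 to 0.496) and 2-cell markers (0.0240 to 0.0766) stood near the median gene or below it.

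Depletion was checked on the TBP CUT&Tag libraries of the same run, since the Tbp gene is not changed by the degron. They yielded 10.96 and 1.15 mouse reads per E. coli read in control replicates 1 and 2 and 6.80 and 0.429 after IAA. The ratio of mouse to E. coli reads thus fell to 0.621 and 0.374 of control. It takes in all mouse reads of a library, background included, so it does not measure the TBP left at promoters. The study itself reports a large loss of promoter-bound TBP by spike-in normalized CUT&Tag, after the shorter and the longer IAA treatment. For the shorter treatment it also reports a loss of most of the tagged protein. For Pol II the ratio of mouse to E. coli reads after IAA was 1.05 of control in pair 1 and 0.621 in pair 2. Pol II over Tbp itself was 32.4 and 27.4 CPM in control and 38.2 and 22.2 CPM after IAA, and over Tbpl1, whose product TRF2 is a TBP relative, 9.53 and 9.75 against 9.23 and 9.54 CPM. Neither gene passed the test (-0.01 ± 0.19 and -0.04 ± 0.34 on the log2 scale ± SE). The IgG library of control replicate 2, a background control, gave 0.33 mouse reads per E. coli read, near the TBP library of IAA replicate 2 (0.429). The changes given here are relative to the bulk of the genes: TMM scaling put the median log2 change at 0.01, and scaling by E. coli reads put it at -0.29.

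**Figure D1:**
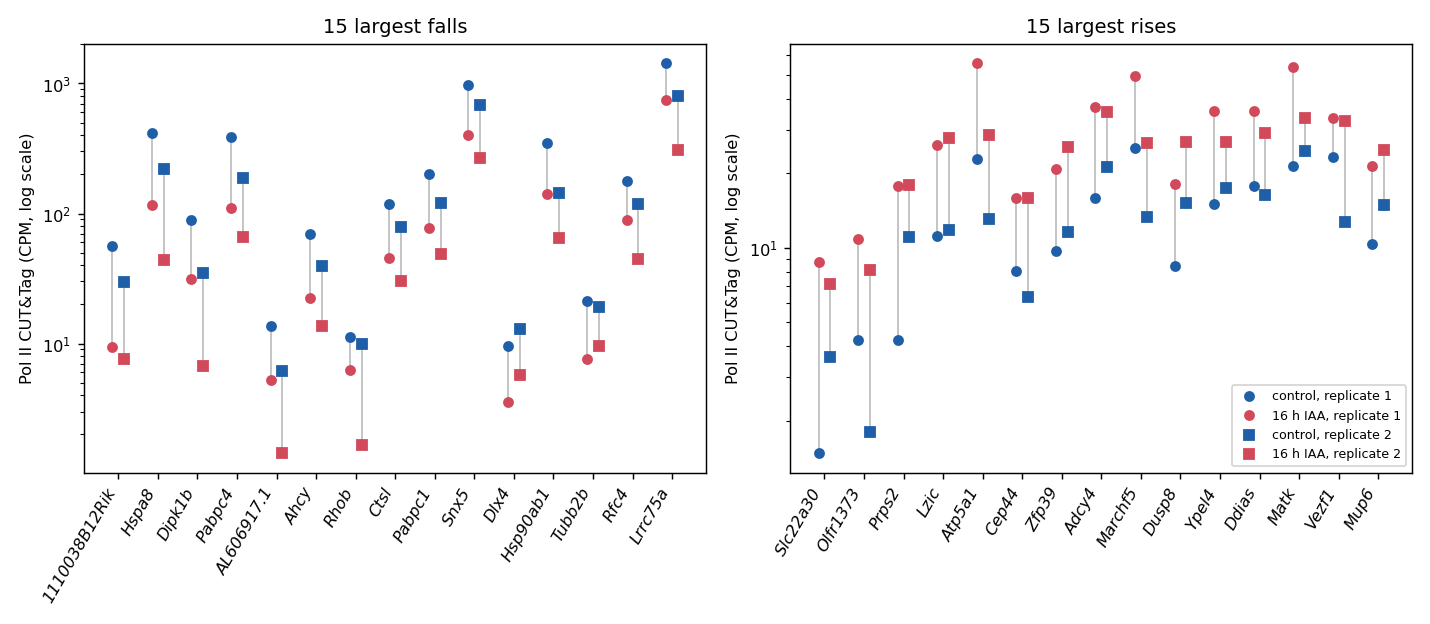
Pol II level (CPM, log scale) in each library for the 15 largest falls (left) and 15 largest rises (right) among called genes whose groups do not overlap. Circles are replicate 1, squares replicate 2, blue control and red 16 h IAA, and grey lines join a pair; both IAA points lie below both control points on the left and above them on the right.

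Among the strongest falls were Hspa8, the constitutive cytosolic Hsp70 (chromosome 9, 40800984 to 40810087 in GRCm38), and 1110038B12Rik, a non-coding snoRNA host (chromosome 17, 34950238 to 34952471). Hspa8 stood at 413 and 222 CPM in control and at 116 and 43.7 CPM after IAA, and 1110038B12Rik at 55.9 and 29.7 against 9.44 and 7.63 CPM. Both IAA libraries were below both controls, and replicate 2 was the lower library in either group. The fitted log2 changes were -2.05 ± 0.12 (adjusted p = 2.3e-63) and -2.30 ± 0.24 (5.7e-20). Dipk1b, a kinase-like gene of the secretory pathway, fell from 88.9 and 34.7 to 31.3 and 6.68 CPM. Pabpc4 and Pabpc1 code for poly(A)-binding proteins. Pabpc4 fell from 389 and 188 to 110 and 65.6 CPM (-1.68 ± 0.12, chromosome 4, 123262351 to 123298925), and Pabpc1 from 200 and 120 to 78.0 and 48.9 CPM (-1.33 ± 0.12, chromosome 15, 36595661 to 36609668). Among 32 cap-binding, poly(A)-binding and initiation factor genes these 2 and the RNA helicase gene Eif4a2 fell (-0.99 ± 0.12), none rose and the median of the list was 0.01, that of all genes.

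Lrrc75a, a gene with a leucine-rich repeat, held more Pol II reads than the genes above, 1425 and 797 CPM in control against 748 and 310 CPM after IAA (-1.14 ± 0.12). It overlaps 2 counted antisense genes, and CUT&Tag reads carry no strand. The sorting nexin gene Snx5, which hosts a snoRNA gene, fell from 978 and 680 to 399 and 269 CPM (-1.32 ± 0.11). Ahcy, which hydrolyses S-adenosylhomocysteine, fell from 70.1 and 39.4 to 22.4 and 13.6 CPM (-1.60 ± 0.19), and with it the methionine adenosyltransferase gene Mat2a (-0.59 ± 0.12) and the polyamine synthesis gene Odc1 (-0.79 ± 0.15), 3 of 19 in the methionine cycle and polyamine list. The lysosomal protease gene Ctsl fell from 118 and 78.7 to 45.7 and 30.1 CPM (-1.38 ± 0.14), as did 2 others of 32 lysosomal genes, the autophagy receptor gene Sqstm1 (-0.84 ± 0.11) and Ctsb (-0.41 ± 0.11).

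Chaperones of the ER fold secreted proteins. Of 25 ER and mitochondrial chaperone genes 6 fell and none rose (24%, against 2.16% of all genes), with a median of -0.16 against 0.01 for all genes; all 6 belong to the ER. With the block, 5 of the list fell in a fit of all 8 Pol II libraries of the run and 1, Hspa5, by DESeq2. In both fits the IAA effect itself comes from the same control and IAA libraries. Hspa5, which encodes the ER Hsp70 BiP, stood at 135 and 90.2 CPM in control and at 61.7 and 54.2 CPM after IAA (-0.95 ± 0.13, adjusted p = 1.6e-10, chromosome 2, 34771970 to 34777547). Pdia6, a disulfide isomerase gene, stood at 80.0 and 51.9 against 43.0 and 29.3 CPM (-0.86 ± 0.16). Hsp90b1, the Hsp90 of the ER, stood at 45.3 and 29.0 against 25.8 and 16.0 CPM (-0.83 ± 0.20). In each the IAA libraries were the lower ones and the groups did not overlap. Calr, coding for the lectin chaperone calreticulin (-0.83 ± 0.14), the isomerase gene Pdia4 (-0.82 ± 0.19) and Manf, coding for a secreted ER factor (-0.66 ± 0.19), also fell. Manf overlaps the counted genes Dcaf1, Rbm15b and 4930524O07Rik, so its count may cover only the stretches it does not share. Pdia6 overlaps Atp6v1c2, Hsp90b1 overlaps 1810014B01Rik and Pdia4 overlaps Mir704, while Hspa5 and Calr overlap no counted gene. Ero1l, the ER oxidase gene on the hypoxia list, fell too (-0.70 ± 0.21, adjusted p = 0.0389). The isomerase gene P4hb is on none of the lists and was chosen after its values were seen; it fell from 258 and 187 to 130 and 111 CPM (-0.88 ± 0.11).

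The promoters of ER chaperone genes are known for the ER stress response element, which pairs a CCAAT box with the letters CCACG at a fixed distance. The letters CCAAT and CCACG with 9 bases of any kind between them were searched on both strands of the RefSeq promoters (GRCm38.p6). Promoters ran from 250 bases before to 50 after the RefSeq start nearest the counted gene start. They were found for 22 of the 25 genes. The motif was present in 7 of the 22 (31.8%) and in 18 of 12627 promoters of all genes tested (0.143%). Those 12627 come from 16349 genes, a lower coverage than that of the list, so the shares are given without a comparison. The matches are shown because the letters were frequent in this list. Of the 7 genes with a match 4 fell, with a median log2 change of -0.83, and of the 15 without a match 1 fell (Pdia4), with a median of -0.05. The 7 and 15 were compared after the values were seen and without a test. All 7 are ER genes, and the mitochondrial members with a promoter are all among the 15. The groups thus differ in compartment too, and a part of the motif cannot be told apart from it. The matches of the 4 that fell are given 5′ to 3′ on the strand of the motif, with its fixed letters in capitals.
Hspa5, chr2:34772025-34772043: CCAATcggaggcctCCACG
Pdia6, chr12:17266491-17266509: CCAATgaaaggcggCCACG
Calr, chr8:84847075-84847093: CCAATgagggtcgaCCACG
Hsp90b1, chr10:86705638-86705656: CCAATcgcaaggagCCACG
Hsp90b1, chr10:86705533-86705551: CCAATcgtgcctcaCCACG
The other matches were those of Canx (116 and 116 CPM in control, 112 and 100.2 CPM after IAA, -0.14 ± 0.12), Creld2 (-0.33 ± 0.30) and Dnajc3 (0.03 ± 0.13), which did not pass the test.
Canx, chr11:50325800-50325818: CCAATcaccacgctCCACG
Dnajc3, chr14:118937827-118937845: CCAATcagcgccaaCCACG

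Of 32 cytosolic heat shock chaperone genes 4 fell and none rose (12.5%, against 1.43% falls among all genes), with a median of -0.01. Beside Hspa8 these were Hsp90ab1, the constitutive Hsp90 (346 and 145 against 141 and 64.4 CPM, -1.24 ± 0.11), its heat-inducible relative Hsp90aa1 (199 and 125 against 145 and 81.8 CPM, -0.53 ± 0.11) and the nucleotide exchange factor gene Hsph1 (-0.58 ± 0.15). The groups of Hsp90aa1 overlapped, since control replicate 2 lay below IAA replicate 1, and its fall rests on the pairs. Dnajb1, the Hsp40 gene, was at 21.0 and 23.1 against 22.2 and 21.5 CPM (-0.01 ± 0.22), and the inducible Hspa1a had 1 to 9 reads and was not tested. None of the 8 genes of the TRiC chaperonin passed the test.

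Glycolysis and glucose transport genes were the group with the largest share of falls among the lists. Of 24, 9 fell and none rose (37.5%, against 1.43% falls among all genes). Of the 24, 19 lay below 0, as did 7886 of all 16349 genes. The median was -0.36, with -0.41 in pair 1 and -0.26 in pair 2. In the fit of all 8 libraries 3 fell, and by DESeq2 4 did. Slc2a1, the glucose transporter GLUT1, stood at 476 and 472 CPM in control and at 206 and 228 CPM after IAA (-1.13 ± 0.11, adjusted p = 7.7e-21, chromosome 4, 119108711 to 119137983). Here the replicates agreed closely within each group. Hk2, which phosphorylates glucose, stood at 415 and 324 against 247 and 246 CPM (-0.58 ± 0.11), and the isomerase gene Gpi1 at 306 and 239 against 184 and 178 CPM (-0.58 ± 0.11). Pgk1, the phosphoglycerate kinase gene, stood at 32.2 and 23.8 against 16.8 and 12.9 CPM (-0.91 ± 0.23), and the pyruvate kinase gene Pkm at 768 and 474 against 506 and 312 CPM (-0.60 ± 0.11), the latter with overlapping groups. The lactate transporter gene Slc16a1 fell by 0.69 ± 0.15 on the log2 scale, and Slc2a3, Pfkl and Pfkp by 0.39 to 0.49. Gapdh (134 and 93.2 against 112 and 64.2 CPM, -0.39 ± 0.12, adjusted p = 0.0599), Eno1 (-0.40 ± 0.13, 0.0635) and Ldha (-0.37 ± 0.18, 0.369) were below 0 without passing.

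Among 19 hypoxia-responsive genes 4 fell and none rose (21.1%, against 1.43% falls among all genes), with a median of -0.21. In the fit of all 8 libraries 2 fell, and by DESeq2 2 did. Ak4, a mitochondrial nucleotide kinase gene, stood at 85.3 and 99.1 against 37.3 and 48.9 CPM (-1.10 ± 0.14, adjusted p = 3.5e-12), and the stress-induced gene Ndrg1 at 55.3 and 28.6 against 20.8 and 21.9 CPM (-0.93 ± 0.19). Slc2a1 and Ero1l were the others. Nuclear genes of oxidative phosphorylation did not share the direction: of 73, 1 rose and none fell, with a median of 0.05. That gene, Atp5a1, codes for the ATP synthase alpha subunit and was at 22.9 and 13.1 against 55.6 and 28.6 CPM (1.21 ± 0.20); it overlaps Haus1. None of 70 mitochondrial ribosomal protein genes and none of 34 proteasome genes passed, with medians of 0.11 and 0.08.

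**Figure D2:**
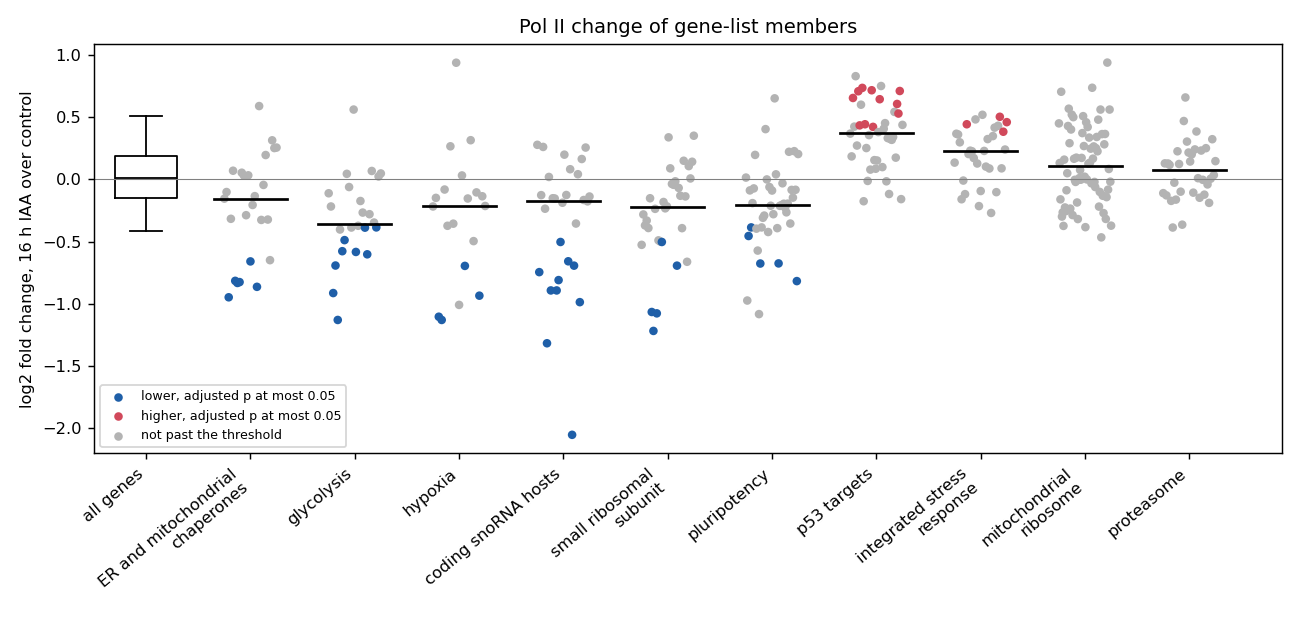
Log2 fold change (16 h IAA over control, blocked fit) of each tested member of 10 gene lists, with black bars at the list medians and a box for all 16349 genes (median and quartiles, whiskers at the 5th and 95th percentiles). Blue members passed the threshold downward and red ones upward; glycolysis has the lowest median (-0.36) and p53 targets the highest (0.37).

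Introns of many translation genes carry snoRNAs. Of 28 protein-coding snoRNA hosts 10 fell (35.7%) and none rose, with a median of -0.17. Besides Hspa8, Snx5 and Eif4a2, these were the chromatin remodeller gene Chd4 (206 and 141 against 99.2 and 85.9 CPM, -0.89 ± 0.12), Rabggtb (-0.89 ± 0.16), Rpl13a (-0.81 ± 0.24), the elongation factor gene Eef1b2 (-0.75 ± 0.15), Rpsa (-0.69 ± 0.12), the Pol I factor gene Taf1d (-0.66 ± 0.11) and Rps3 (-0.50 ± 0.11). Of 17 non-coding hosts only 1110038B12Rik passed, with a list median of -0.22. Small-subunit ribosomal protein genes fell in 5 of 32 cases (15.6%, median -0.23) and large-subunit genes in 3 of 43 (6.98%, median -0.15). Of all genes tested 1.43% fell. Both ribosomal lists are dense in Pol II, with median levels of 11.77 and 11.24 CPM per kb, and the protein-coding hosts are denser. In the densest of 10 equal groups of all genes tested (from 4.788 CPM per kb) 5.51% fell, near the large-subunit share. The part of density in the shares of these lists was not tested. Rps9 was at 100.1 and 52.1 against 53.7 and 21.0 CPM (-1.07 ± 0.15). Its groups overlapped, since control replicate 2 lay below IAA replicate 1, and both pairs fell. On the list of nucleolar and ribosome biogenesis genes, Npm1 (678 and 381 against 362 and 202 CPM, -0.91 ± 0.11) fell as well. So did Nap1l1 of that list (516 and 273 against 257 and 141 CPM, -0.98 ± 0.11).

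Of 41 pluripotency genes 5 fell (12.2%, against 1.43% of all genes) and none rose, with a median of -0.21. Of the 41, 33 were below 0, as were 7886 of all 16349 genes. In the fit of all 8 libraries of the run 1 fell, and by DESeq2 1 did. The 5 were the signalling inhibitor gene Spry4 (-0.82 ± 0.18), the DNA demethylase gene Tet2 (203 and 185 against 115 and 128 CPM, -0.68 ± 0.11), the threonine dehydrogenase gene Tdh (-0.68 ± 0.19), and the factors Tfcp2l1 (364 and 656 against 242 and 523 CPM, -0.46 ± 0.11) and Nr5a2 (-0.39 ± 0.11). Pou5f1 (10.4 and 3.40 against 6.50 and 5.73 CPM, -0.08 ± 0.42) and Nanog (-0.42 ± 0.36) had few reads and wide errors, so a 2-fold change in either would not have been detectable. No tested marker of primitive endoderm (16), mesoderm (12), trophoblast (10), fibroblasts (10) or the 2-cell state (2) passed, and of 11 epiblast and neuroectoderm genes only the methyltransferase gene Dnmt3b did (-0.73 ± 0.12). The fibroblast list had a median of 0.28 (0.53 in pair 1 and 0.07 in pair 2).

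The p53 pathway, which answers to DNA damage and ribosomal stress, held the main group of rises. Of 40 targets 11 rose and none fell (27.5%, against 0.734% of all genes), 35 were above 0 and the median was 0.37, with 0.49 in pair 1 and 0.22 in pair 2. In the fit of all 8 libraries 5 rose, and by DESeq2 4 did. Mdm4 and Mdm2 encode the 2 inhibitors of p53. Mdm4 was at 546 and 675 CPM in control and at 907 and 1005 CPM after IAA (0.65 ± 0.12, adjusted p = 4.6e-06, chromosome 1, 132959484 to 133030561), and Mdm2 at 163 and 120 against 227 and 213 CPM (0.64 ± 0.11). Cdkn1a, the cell cycle inhibitor p21, was at 53.8 and 61.0 against 110 and 78.5 CPM (0.71 ± 0.13, chromosome 17, 29090976 to 29100727); it overlaps the counted gene 1700023B13Rik. In all 3 both IAA libraries stood above both controls.

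Some death and growth arrest targets rose with them. Bax, a pore-forming apoptosis gene, was at 29.4 and 20.4 against 44.9 and 36.5 CPM (0.72 ± 0.19), the death receptor gene Eda2r at 106 and 89.5 against 180 and 140 CPM (0.71 ± 0.12) and Trp53inp1 at 55.9 and 60.1 against 101 and 91.9 CPM (0.73 ± 0.13). The G2 gene Gtse1 was at 144 and 171 against 229 and 248 CPM (0.61 ± 0.11). The list also included Cd80, Sesn2, Zmat3 and Aen, at 0.42 to 0.53. Trp53cor1, the non-coding gene beside Cdkn1a also called lincRNA-p21, was not on the list and was chosen after its values were seen; it was at 55.5 and 46.5 against 116 and 64.4 CPM (0.79 ± 0.14). Trp53 itself stood at 107 and 99.1 against 118 and 92.3 CPM (0.02 ± 0.12). Phlda3 (0.83 ± 0.29, adjusted p = 0.116) and Pmaip1 (-0.16 ± 0.29) did not pass. Nor did other death and arrest targets, among them Bbc3 (0.355 ± 0.117, 0.0823), Apaf1 (0.379 ± 0.117, 0.0536), Fas (0.437 ± 0.444, 0.769) and Btg2 (0.423 ± 0.304, 0.626). Zfp365 (0.72 ± 0.24, 0.0954) is not on the list, was chosen after its values were seen and did not pass either.

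Genes of the integrated stress response, which meets amino acid shortage and unfolded proteins through ATF4, rose in 4 of 31 cases and fell in none. This share of rises was 12.9%, against 0.734% of all genes. The median of the list was 0.23 (0.33 in pair 1 and -0.01 in pair 2). None of the 4 passed in the fit of all 8 libraries or by DESeq2, both with the block. They were the asparaginyl-tRNA synthetase gene Nars (138 and 56.0 against 191 and 81.6 CPM, 0.50 ± 0.12), the proline synthesis gene Aldh18a1 (0.46 ± 0.11), the serine synthesis gene Psat1 (241 and 78.2 against 306 and 106 CPM, 0.38 ± 0.11) and Sesn2, which is on the p53 list too (0.44 ± 0.13). In these 4 genes the control of replicate 1 was above the IAA library of replicate 2, so the groups overlapped. Cars, the cysteinyl-tRNA synthetase gene, is on none of the lists and was chosen after its values were seen; it rose from 376 and 187 to 524 and 291 CPM (0.55 ± 0.11). Atf4 (0.43 ± 0.19, adjusted p = 0.292), Asns (0.23 ± 0.12, 0.462) and Ddit3 (0.23 ± 0.16, 0.612) did not pass.

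The largest rises belonged to genes with few reads. Slc22a30 (1.48 and 3.63 against 8.81 and 7.16 CPM) and the olfactory receptor gene Olfr1373 (4.23 and 1.81 against 10.9 and 8.11 CPM) headed them, and 26 other tested olfactory receptor genes did not pass (median of all 27, 0.16). Prps2, a nucleotide synthesis gene, was at 4.23 and 11.1 against 17.8 and 17.9 CPM (1.30 ± 0.31). Of 21 genes on the nucleotide synthesis list 2 rose and none fell (median 0.02). Lzic was at 11.2 and 11.8 against 26.0 and 27.7 CPM (1.22 ± 0.25), and the adenylyl cyclase gene Adcy4 at 15.9 and 21.3 against 36.9 and 35.5 CPM (0.97 ± 0.21). Cep44, Zfp39, Marchf5, Dusp8, Ypel4, Ddias, Matk, Vezf1 and Mup6 rose by 0.88 to 1.15. Among the machinery of transcription 1 of 33 general factor and TAF genes rose, Taf15 (0.40 ± 0.11), and 1 fell, Taf9b (-0.69 ± 0.19), which lies beside Pgk1. None of 27 polymerase subunit genes passed.

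The other lists held few calls. Of 26 actin and tubulin genes the beta-tubulin gene Tubb2b (-1.24 ± 0.29) and Actg1 fell (median -0.07), and of 24 cholesterol and fatty acid genes 2 did (median -0.24), among them the fatty acid synthase gene Fasn (-0.44 ± 0.11). Of 34 cyclin, CDK and mitosis genes the topoisomerase gene Top2a (-0.66 ± 0.11) and Cdk6 (-0.57 ± 0.11) fell (median -0.04), and of 30 replication genes the clamp loader gene Rfc4 did (-1.18 ± 0.12, median 0.07). Of 38 splicing genes Rbm3, Hnrnpdl and Hnrnpa3 fell by 0.43 to 0.54 (median 0.04). Of 34 genes on the nucleolar and ribosome biogenesis list the histone chaperone gene Set joined Npm1 and Nap1l1 (-0.63 ± 0.11, median -0.01). Eef1b2 and Tpt1 (-0.60 ± 0.12) fell among 10 elongation factor genes (median -0.18), Rhob (-1.48 ± 0.42) among 25 immediate-early genes (median 0.01), Rtf1 (-0.43 ± 0.12) among 29 elongation cofactor genes (median -0.07) and Taf1d among 27 TBP family and Pol I and Pol III factor genes (median -0.04). No member of these lists rose. None of 23 aryl hydrocarbon receptor and NRF2 targets (median -0.02) and none of 14 histone genes (median 0.13) passed.

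Several falls came from genes that lie next to each other. Of the 233, 26 had another falling gene within 5000 bases (11.2%, against 0.930% of all genes tested with a falling gene that near), in 13 pairs of which 4 overlap; of the 120 rises 2 did, in 1 pair. Slc35b2, a Golgi transporter gene, and Hsp90ab1 are neighbours on chromosome 17 (45563874 to 45567671 and 45567775 to 45573271) and fell by 1.42 ± 0.11 and 1.24 ± 0.11. Hspa5 and Rabepk are neighbours on chromosome 2 and were at -0.95 ± 0.13 and -0.75 ± 0.12. Eif4a2 and Rfc4 (-0.99 and -1.18) overlap, as do Rab26 and Traf7 (-1.11 and -0.57). The other overlapping pairs were Taf1d and Cep295 (-0.66 and -0.41) and Mat2a and Particl (-0.59 and -0.62). Since Sox2 inside Sox2ot had 0 reads, reads over a shared stretch may be counted for neither gene.

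Falls were most frequent among genes dense in Pol II. Over 10 equal groups of genes ordered by mean CPM per kb, the share that fell rose from 0% in the lowest to 5.51% in the highest, and the share that rose from 0.367 to 1.96%; dense genes also give smaller errors. The median log2 change ran from 0.14 in the lowest group to -0.03 in the highest, and this came from pair 1 (0.29 to -0.08) more than pair 2 (0.02 to 0.02), the pair in which olfactory receptor reads rose too. The median level was 3.39 CPM per kb for falls, 2.65 for rises and 1.27 for all genes, and the median gene length was 33680, 27460 and 26740 bases. Falls were spread over 20 chromosomes, at 0.479 to 2.38% of the genes tested on each.

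**Figure D3:**
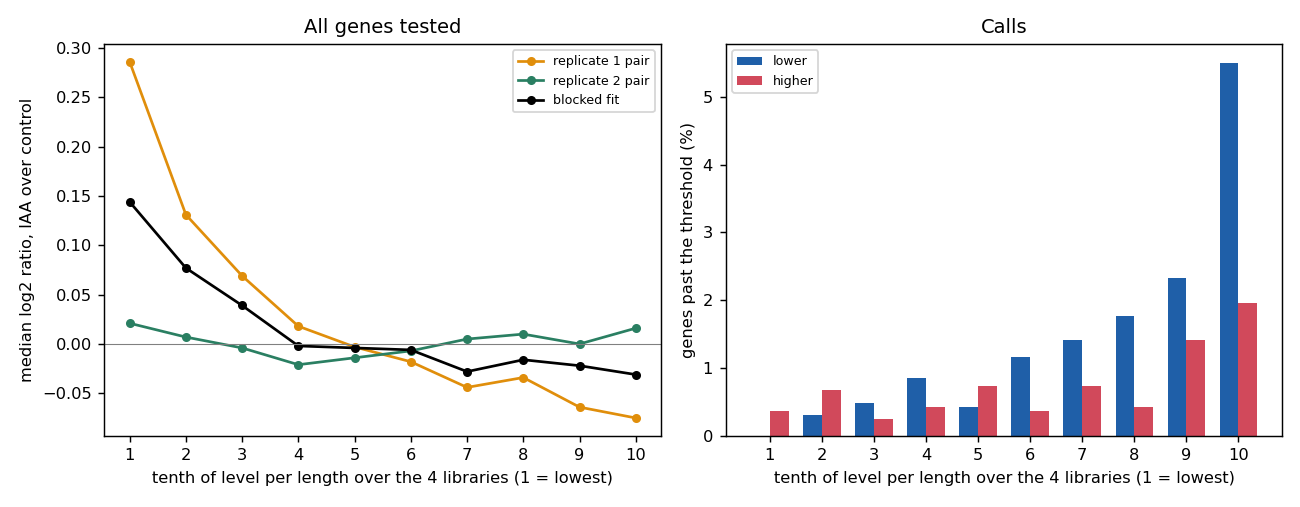
Left, median log2 ratio of IAA over control in 10 equal groups of tested genes ordered by mean level per length, for the replicate 1 pair, the replicate 2 pair and the blocked fit. Right, percent of each group past the threshold; falls reach 5.51% and rises 1.96% in the densest group, and the left-hand slope is that of pair 1 (0.29 to -0.08).

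The deposited list of genes with a TATA box, which TBP binds, held 96 of the 233 falls (41.2%), 20 of the 120 rises (16.7%) and 3584 of all 16349 genes (21.9%). Plotted over whole sets of promoters, the study saw no difference in Pol II upon depletion, with or without a TATA box. The letters TATAA were searched between bases -45 and -16 of the RefSeq promoters and were found on the strand of the gene in 341 of the 12627 promoters at hand for the 16349 genes (2.70%) and on the other strand in 152 (1.20%). Promoters were at hand for under 80% of the falls and of all genes, so a comparison of shares is void; on the strand of the gene the letters were in 12 of the 181 falls and 3 of the 95 rises that had one. Of 51 falls that the rule for named genes picked and whose window was read, 6 held the letters and 45 did not. Being on the deposited list is not the same as holding these letters. Slc2a1, Pabpc4 and Chd4, among others, are on it without TATAA in the window. Of the 6, 1110038B12Rik is not on it and the others are. Windows were placed by the RefSeq start nearest the counted gene start. For Pabpc4 (gene from 123262351, window from 123282866) and for Mup6 below, that start lay far inside the counted gene. Their windows thus say nothing of a promoter at the counted gene start. The 6 are shown because they carry the letters that give the TATA box its name; TATAA is in capitals, in 30 bases on the strand of the gene.
1110038B12Rik, chr17:34952487-34952516: cccgggccaggcgtgggTATAAatggccga
Hspa5, chr2:34772045-34772074: cggggctgtggggagggtaTATAAggcgag
Rps9, chr7:3703996-3704025: aaggcgacgttacTATAAgacctcggtcca
Mat2a, chr6:72439572-72439601: cgaccccctgctcTATAAatactgggccgc
Slc16a1, chr3:104638619-104638648: tgctccggcccccgcgggtTATAAggcagc
Tfcp2l1, chr1:118627900-118627929: acgcccacctgacggccTATAAaaggcgcc
One rise among the genes named here, Mup6, held the letters as well (cactgaacccagagagtaTATAAagacaag, chr4:60003436-60003465).

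Do the 16 h calls recur where retinoic acid was present? Those 4 libraries share none with the comparison above, though they come from the same run and carry the same replicate numbers. In them IAA for 16 h lowered Pol II over 105 genes and raised it over 66 of 16439 (0.639 and 0.401%, 1.04% in all). Of 232 falls measured there 212 had the same sign (91.4%, against 47.6% of all genes below 0) and 69 passed the threshold. Of 119 rises 106 had the same sign (89.1%, against 52.4% of all genes above 0) and 28 passed. Hspa8 stood at 333 and 175 CPM in retinoic acid and at 93.1 and 54.8 CPM with IAA added (-1.77 ± 0.11). By list, with no test of a difference, p53 targets had a median of 0.30 (8 of 40 higher), integrated stress response genes 0.37 (10 of 31 higher), and ER and mitochondrial chaperones -0.21 (5 of 25 lower). Glycolysis genes were at -0.07 (2 of 24 lower) and small-subunit ribosomal protein genes at 0.01 (3 of 32 lower). Pluripotency genes were at 0.03 (2 of the 36 measured there lower).

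**Figure D4:**
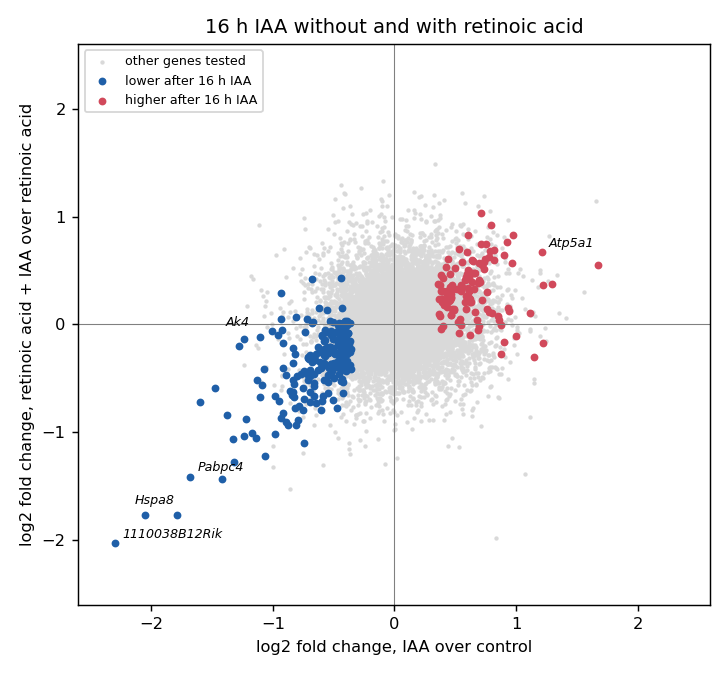
Log2 fold change of IAA over control at 16 h against that of retinoic acid with IAA over retinoic acid, for genes tested in both. Blue points fell and red points rose in the first comparison; 212 of 232 blue points lie below 0 and 106 of 119 red points above 0 on the vertical axis, while Ak4 lies near 0 on it.

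Some falls were close to 0 in retinoic acid. Ak4 was at 53.1 and 61.2 against 59.0 and 46.0 CPM there (-0.12 ± 0.17), and Ndrg1 at 9.86 and 13.9 against 11.4 and 17.9 CPM (0.29 ± 0.29). The differences between the effects, tested over all 8 libraries of the run with the block, were 1.0 ± 0.26 for Ak4 and 1.28 ± 0.48 for Ndrg1 (adjusted p = 0.9999 for both). No gene of 17032 passed in that test (580 at an unadjusted p under 0.05, 3.41%), so no effect of IAA can be called different with retinoic acid.

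In that fit of 8 libraries, which takes its spread from more libraries, 71 falls and 26 rises passed (0.417 and 0.153% of 17032 genes, 0.57% in all), all of them among the 233 and 120. DESeq2 with the block called 51 falls and 14 rises (0.51 and 0.14% of the 10009 genes it gave an adjusted p, 0.649% in all), also all among them. Both fits take the IAA effect from the same control and IAA libraries, so that overlap is largely fixed in advance. Genes past the threshold in the blocked 16 h fit, in both of these fits and in the retinoic acid libraries numbered 32 falls and 11 rises. The falls included Hspa8, 1110038B12Rik, Dipk1b, Pabpc4, Pabpc1, Slc35b2, Hsp90ab1, Ctsl, Snx5, Rps9, Rpsa, Rpl3, Hspa5, P4hb, Slc2a1, Eif4a2, Rfc4, Npm1, Nap1l1, Taf1d and the stress granule gene G3bp1 (638 and 501 against 402 and 281 CPM). The rises were Mdm2, Mdm4, Gtse1, Ckap2, Cars, Fat1, Slc19a2, Got1l1, Afg1l, Wdr1 and Mcm3ap. Fat1, a giant cadherin gene, was at 516 and 490 against 801 and 764 CPM (0.64 ± 0.11), and the thiamine transporter gene Slc19a2 at 78.1 and 70.3 against 135 and 120 CPM (0.78 ± 0.12).

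At 6 h of IAA, in another run of C64 whose count columns could not be matched to replicate numbers and were tested without a block, 214 of the 233 falls were below 0 (91.8%, against 49.3% of all genes) and 7 passed the threshold, which are all 7 genes called there (0.0433% of 16157); 86 of the 120 rises were above 0 (71.7%, against 50.7%) and none passed. In B8 cells at 6 h, where 3.1% of 13881 genes fell and 2.25% rose (5.35% in all), 201 of 231 falls were below 0 (87.0%, against 52.6%) with 78 past the threshold, and 45 of 119 rises above 0 (37.8%, against 47.4%) with 5 past it. Slc2a1 was at -0.29 ± 0.19 and Hspa8 at -1.73 ± 0.14 at 6 h in C64. The medians of the p53 list were 0.05 at 6 h and -0.09 in B8, and those of the integrated stress response -0.07 and -0.46. Cdkn1a was at 0.21 ± 0.19 at 6 h and -0.99 ± 0.16 in B8 (adjusted p = 0.00225), while its neighbour Trp53cor1 was at 2.05 ± 0.26 in B8. The difference between 16 h and 6 h was -0.84 ± 0.24 for Slc2a1 and 0.49 ± 0.28 for Cdkn1a (adjusted p = 0.9995 for both). No gene of 16879 passed that test (392 at an unadjusted p under 0.05, 2.32%), and duration and run cannot be told apart.

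**Figure D5:**
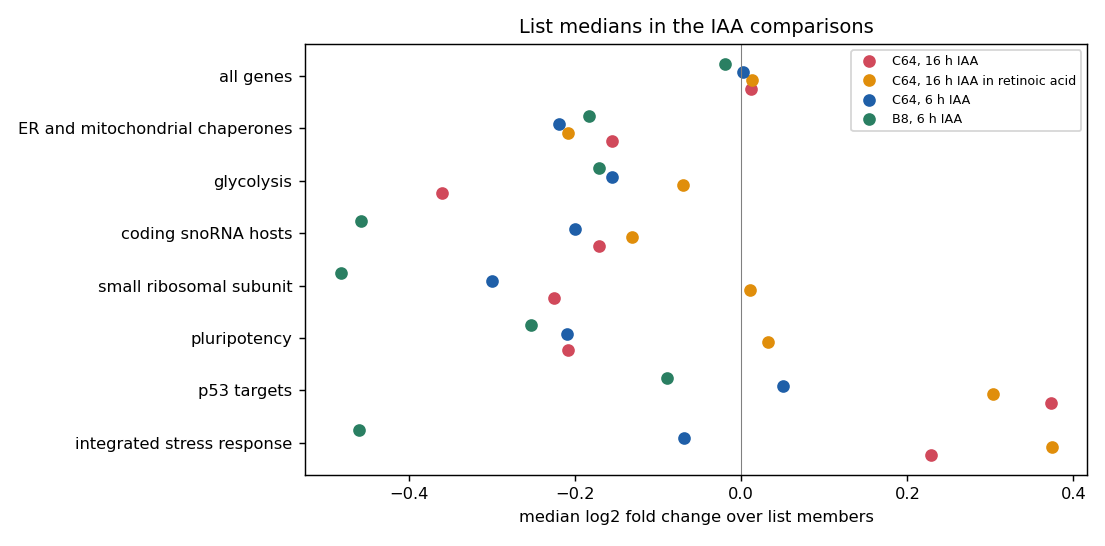
Median log2 fold change over the members of 7 gene lists and over all genes in 4 IAA comparisons (C64 at 16 h, C64 at 16 h in retinoic acid, C64 at 6 h, B8 at 6 h). The p53 median is 0.37 and 0.30 in the 16 h comparisons, 0.05 at 6 h and -0.09 in B8; the differences were not tested by list.

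Of the genes that the study follows by name, Rab26, a vesicle GTPase gene, fell from 105 and 55.3 to 43.0 and 30.1 CPM (-1.11 ± 0.15). Actb, the beta-actin gene, was at 92.5 and 80.9 against 73.8 and 70.4 CPM (-0.27 ± 0.13, adjusted p = 0.376), while Actg1, the gamma-actin gene, fell from 63.1 and 52.1 to 36.9 and 28.2 CPM (-0.83 ± 0.17). Myc (-0.26 ± 0.19), Cdx1 (-0.27 ± 0.30) and Stra8 (0.26 ± 0.25) did not pass.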

How the data were processed

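Pol II CUT&Tag was measured in 2 control and 2 IAA libraries. The deposited counts are raw read counts per gene that the authors made with Bowtie2 on mm10 and featureCounts over whole genes, after subsampling each library, keeping PCR duplicates and removing pseudogenes; CUT&Tag reads carry no strand. Other deposited values are read numbers on the mouse and E. coli genomes and a list of TATA genes. Tests used edgeR 4.0.16 in R 4.3.3 (TMM, filterByExpr with a minimum count of 20, quasi-likelihood F test, replicate number as block in run 3, run as block in B8, no block at 6 h in C64, Benjamini-Hochberg threshold 0.05); DESeq2 1.42.0 and limma 3.58.1 were alternatives. CPM are counts over the TMM-scaled library size, errors of log2 changes are Wald SEs of unshrunk coefficients, and with 1 residual degree of freedom the spread comes from all genes together.

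The study's methods state no block. The numbers pair the libraries: differences between replicates 1 and 2 correlated at 0.422 to 0.628 over 17032 genes in all 6 pairs of run 3 groups, and the spike-in share differs with the number. The study calls the replicates biological, but nothing says which cultures they came from, so p-values measure the spread between these libraries, which may be technical. With n = 2 per group no permutation test can pass. Members and gene lists were chosen with earlier results of these data known. Named are up to 15 non-overlapping calls per direction, up to 6 called members per list, genes the study follows, Tbp, Tbpl1 and, though few are printed, the 3 calls per direction densest in reads; other genes printed were chosen after their values were seen. Coordinates are those of the count tables (GRCm38). Promoters come from RefSeq. A few named genes are not reported here.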

Additional observations from a re-analysis of the deposited data

How the results depend on the processing

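The calls rest on the pairing: without the replicate block the quasi-likelihood test called 0 higher and 0 lower genes at 16 h, 0 and 0 in retinoic acid, and 0 in both tests of a difference, and the likelihood-ratio test without the block 0 higher and 2 lower. The share of falls with the same sign in retinoic acid was 91.4% without the block too. E. coli scaling with the block called 0 and 0; on that scale the 2 pairs moved by different amounts (0.07 and -0.69 in log2 mouse reads per E. coli read). Library totals gave 197 higher and 206 lower, a more even split than 120 and 233. DESeq2 gave 14 and 51 (5 and 30 in retinoic acid), and the fit of 8 libraries 26 and 71 (8 and 40). Leaving out 1 library at a time from that fit gave 1 to 43 higher and 21 to 107 lower genes, fewest without control replicate 1, and in retinoic acid 0 to 14 higher and 14 to 63 lower, fewest without the retinoic acid library of replicate 1; the tests of a difference stayed at 0. The likelihood-ratio test with the block, limma voom, both forms of the quasi-likelihood fit (the newer one added after the data were seen), RLE factors and no filter on low counts kept each count within 1.5 times. No named gene that was called turned in direction under any of these. Beyond the change of scaling, samples or block itself, the cause of these shifts was not tested. With 2 libraries per group and 4077791 to 5026110 reads in genes each, low genes such as Pou5f1 are not resolved.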
